A study of Homo sapiens with 9 samples.

Results

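The aminoacyl-tRNA synthetases examined here are 36 nuclear genes, 20 for cytosolic enzymes and 16 for mitochondrial enzymes, out of 26186 genes in the count table. They were chosen by name: each gene whose Ensembl identifier, with the version dropped, carries a listed synthetase symbol in GENCODE release 29. All 36 were found in the table and all 36 passed the filter on low counts, so none was lost before testing. The rule used names and no threshold on a measured value.

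Aminoacyl-tRNA synthetases join each amino acid to its matching tRNAs at the expense of ATP, and the ribosome draws on the charged tRNAs to read codons. The cytosol and the mitochondrion use largely separate sets of these enzymes, all encoded in the nucleus, although the glycyl (GARS) and lysyl (KARS) genes supply both compartments. In the cytosol several synthetases are held in a multisynthetase complex by scaffold proteins, and many synthetase genes are known targets of ATF4, a transcription factor made when amino acids run short or the endoplasmic reticulum is stressed.

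Polyadenylated RNA was sequenced from MCF10A, a non-tumorigenic human cell line of breast epithelium with basal markers. The series asked how RNA levels change when the histone chaperone CAF-1 is suppressed. Every group was infected with a pLKO.1 lentivirus carrying a short hairpin RNA, received 2 µg/mL puromycin from 24 hours after transduction, and gave its RNA at day 3 after infection. The groups were a first hairpin against CHAF1B, which encodes a CAF-1 subunit (shCHAF1B-1, 3 libraries), a second hairpin against the same gene (shCHAF1B-2, 3 libraries), and a hairpin against the gene of green fluorescent protein as control (shGFP, 3 libraries). Both comparisons use the same shGFP libraries and are therefore not independent of each other. The labels do not say whether the 3 libraries of a group came from separate cultures, so the spread behind each p-value is that between the libraries sequenced and may be technical.

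Library totals ran from 24339914 to 31819468 counts. CHAF1B stood at 2.56, 3.88 and 3.43 CPM (reads scaled to a common library size) in shCHAF1B-1 libraries and 2.66, 3.89 and 3.07 CPM in shCHAF1B-2 libraries, against 35.2, 41.0 and 36.8 CPM in shGFP libraries. All 13 of 13 basal mammary epithelial markers were in the table, and EPCAM, KRT5 and TP63 were detected in every library. Replicate 3 of shCHAF1B-1 stood apart: 14 of 15 B lymphocyte markers were in the table and their summed level was 242.25 CPM there, against 1.67 to 2.25 CPM in the other 5 knockdown libraries and 1.72 to 2.70 CPM in shGFP libraries. MS4A1 and CD79A, defining B lymphocyte markers, reached 105.04 and 30.01 CPM in that library, and the 3 of 10 T lymphocyte markers in the table summed to 3.55 CPM there. The summed level of 7 of 10 myeloid markers was 156.06 to 183.28 CPM in knockdown libraries and 81.03 to 86.96 CPM in shGFP libraries, that of 6 of 8 endothelial markers 10.89 to 12.95 CPM in knockdown libraries and 4.16 to 4.84 CPM in shGFP libraries, and that of 8 of 10 fibroblast markers 70.50 to 78.18 CPM in knockdown libraries and 61.08 to 64.35 CPM in shGFP libraries. The part of these markers in the results below was not tested, and counts without shCHAF1B-1 replicate 3 are given beside the main ones.

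CHAF1B knockdown moved most synthetase genes by small amounts and in both directions. With shCHAF1B-1, 25 of 36 passed an adjusted p of 0.05, 8 up and 17 down, where 53.2% of the 16235 genes tested passed, 27.9% up and 25.2% down. With shCHAF1B-2, 23 of 36 passed, 8 up and 15 down, where 51.3% of all genes passed, 26.7% up and 24.6% down. Under both hairpins the same way, 22 of 36 passed against a background of 44.7%: 8 rose (background 23.8%) and 14 fell (background 20.8%). For 23 of 36 synthetases the 6 knockdown libraries lay all above or all below the 3 shGFP libraries, where 48.6% of all genes did so. In bulk RNA, fewer cells of a type and less RNA per cell cannot be told apart.

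The cytosolic enzymes gave 5 risen, 7 fallen and 8 that did not pass under both hairpins, of 20. The mitochondrial enzymes gave 3 risen, 7 fallen and 6 that did not pass under both, of 16. Without shCHAF1B-1 replicate 3 the cytosolic counts were 5 risen and 6 fallen and the mitochondrial counts 3 risen and 6 fallen. The median log2 fold change of the cytosolic class was -0.10 with shCHAF1B-1 and -0.03 with shCHAF1B-2, that of the mitochondrial class -0.16 and -0.09. Over all genes tested the medians were -0.00 with shCHAF1B-1 and -0.01 with shCHAF1B-2. Whether the 2 classes differ from each other was not tested.

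The changes were small for nearly every member. The median size of the log2 fold change, sign dropped, was 0.19 with shCHAF1B-1 and 0.20 with shCHAF1B-2 over the 36 synthetases, against 0.30 and 0.29 over all genes tested. VARS2 was the single member to pass under both hairpins at 1.5-fold or more under each, 2.78% of the members where 15.3% of all genes did so (9.58% risen and 5.70% fallen). This fold threshold was set after the values had been seen. For every other member the 95% interval of the change stayed within 1.5-fold in either direction under each hairpin.

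**Figure D1:**
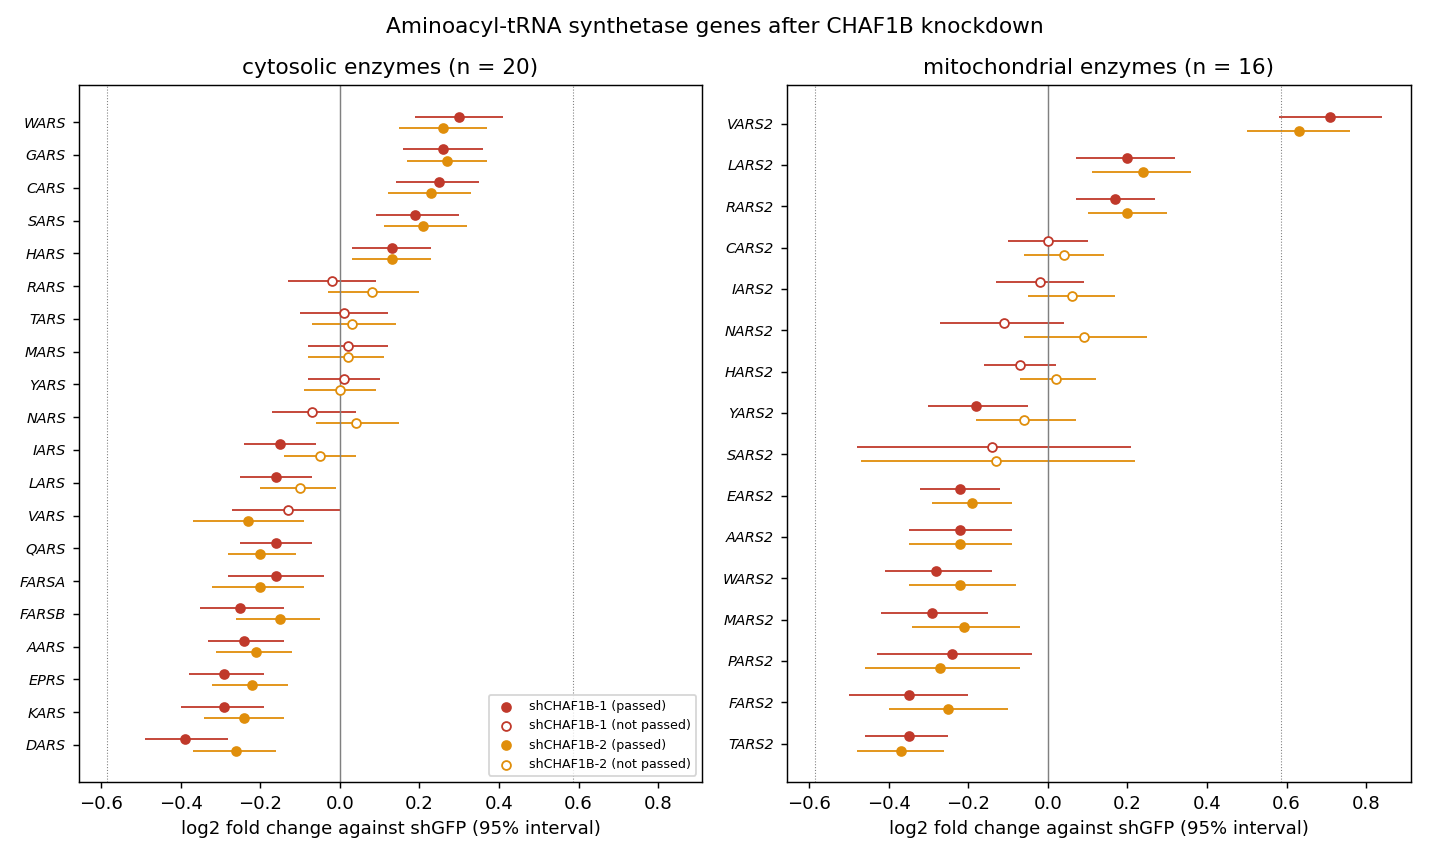
Log2 fold change of each synthetase gene against shGFP with its 95% interval, cytosolic enzymes on the left and mitochondrial enzymes on the right; filled points passed an adjusted p of 0.05, open points did not, and dotted lines mark 1.5-fold. VARS2 is the single gene beyond the dotted lines, at 0.71 with shCHAF1B-1 and 0.63 with shCHAF1B-2.

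Synthetase promoters were examined because ATF4 is known to act on this family through the C/EBP-ATF response element. Windows of 300 bases, 250 before and 50 after the RefSeq start on GRCh38.p14, were matched for 30 of 36 members. DARS, LARS, VARS, YARS, AARS2 and VARS2 had no matched window and were not searched for any motif. The element TGATGNAA, searched on both strands, was found in 6 of 16 cytosolic windows and 1 of 14 mitochondrial windows, against 3.62% of 35116 windows of that length. The 28-base stretches around these matches are shown in each gene's own direction, with the element in capitals, to set the letters beside what each gene did.
AARS (chr16:70289676-70289703, minus strand): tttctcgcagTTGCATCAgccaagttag
CARS (chr11:3057408-3057435, minus strand): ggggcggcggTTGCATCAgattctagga
IARS (chr9:92293693-92293720, minus strand): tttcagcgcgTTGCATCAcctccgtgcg
MARS (chr12:57488054-57488081, plus strand): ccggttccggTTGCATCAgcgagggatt
NARS (chr18:57621805-57621832, minus strand): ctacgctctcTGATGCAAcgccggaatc
TARS (chr5:33440957-33440984, plus strand): cgcctttcgaTTGCATCAgctggtccag
YARS2 (chr12:32756077-32756104, minus strand): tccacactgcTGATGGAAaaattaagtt

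The genes that hold this element did not move one way. CARS rose under both hairpins and AARS fell under both. IARS and YARS2 fell with shCHAF1B-1 and did not pass with shCHAF1B-2, while MARS, NARS and TARS passed with neither. A match of letters is a description of the window and not a measured site. Of the other motifs searched on both strands, the E-box CACGTG was found in 1 of 16 cytosolic and 3 of 14 mitochondrial windows (7.26% of all windows), the NRF1 motif in 3 of 16 and 3 of 14 (5.78%), and the ETS motif CCGGAAGT in 4 of 16 and 3 of 14 (4.14%). The ETS matches of HARS and HARS2 are the same sites in shared bases, so they enter both class counts. None of these letter patterns contains another.

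Cytosolic enzymes that rose were those for tryptophan, glycine, cysteine, serine and histidine. WARS, which charges tryptophan (chromosome 14, 100333788 to 100376805 on GRCh38, minus strand), stood at 159, 151 and 150 CPM in shCHAF1B-1 libraries and 149, 143 and 156 CPM in shCHAF1B-2 libraries, against 119, 131 and 124 CPM in shGFP libraries. All 6 knockdown libraries were above all 3 shGFP libraries. WARS rose by 22.9% with shCHAF1B-1 (log2 fold change 0.30, SE 0.0506, adjusted p = 0.000231) and by 19.6% with shCHAF1B-2 (0.26, SE 0.0508, adjusted p = 0.000755). GARS, the glycyl enzyme of cytosol and mitochondrion (chromosome 7, 30594681 to 30634033, plus strand), gave 326, 311 and 329 CPM in shCHAF1B-1 libraries and 317, 314 and 341 CPM in shCHAF1B-2 libraries, against 266, 271 and 268 CPM in shGFP libraries. GARS rose by 20.0% with shCHAF1B-1 (log2 fold change 0.26, SE 0.0456, adjusted p = 0.000268) and by 20.8% with shCHAF1B-2 (0.27, SE 0.0457, adjusted p = 0.000216). Its shGFP libraries were nearly equal and below every knockdown library.

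CARS, which charges cysteine, had 86.4, 85.1 and 84.8 CPM in shCHAF1B-1 libraries and 81.5, 83.2 and 88.7 CPM in shCHAF1B-2 libraries, against 70.5, 75.1 and 70.6 CPM in shGFP libraries. CARS rose by 18.6% with shCHAF1B-1 (adjusted p = 0.000672) and by 17.2% with shCHAF1B-2 (adjusted p = 0.00127). The groups did not overlap. SARS, the seryl enzyme, which also supplies the seryl-tRNA that is turned into selenocysteinyl-tRNA, had 289, 269 and 278 CPM in shCHAF1B-1 libraries and 280, 270 and 297 CPM in shCHAF1B-2 libraries, against 235, 252 and 244 CPM in shGFP libraries. SARS rose by 14.4% with shCHAF1B-1 (adjusted p = 0.00463) and by 16% with shCHAF1B-2 (adjusted p = 0.00261), again without overlap between knockdown and shGFP libraries.

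HARS, the histidyl enzyme, had the smallest rise of the cytosolic enzymes that passed. Its levels were 221, 221 and 203 CPM in shCHAF1B-1 libraries and 211, 211 and 223 CPM in shCHAF1B-2 libraries, against 194, 195 and 199 CPM in shGFP libraries. The lowest knockdown library was just above the highest shGFP library. HARS rose by 9.62% with shCHAF1B-1 (adjusted p = 0.0273) and by 9.67% with shCHAF1B-2 (adjusted p = 0.0280). The call was lost under 9 of 17 other settings at the same threshold, among them leaving out shGFP replicate 1 (adjusted p = 0.0873 with shCHAF1B-1 and 0.0880 with shCHAF1B-2) or shGFP replicate 2 (0.0681 and 0.0693). It was also lost for shCHAF1B-1 without that group's replicate 1 (0.0906) or 2 (0.109), and for shCHAF1B-2 without that group's replicate 1 (0.0540) or 3 (0.0775).

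HARS shares its promoter with HARS2, its mitochondrial partner on the opposite strand. Their RefSeq starts lie 85 bases apart and their 300-base windows share 184 bases, chr5:140691321-140691504. The HARS window is shown because it serves both genes; capitals mark its 2 ETS motifs.
HARS (GRCh38.p14, chr5:140691321-140691620, minus strand): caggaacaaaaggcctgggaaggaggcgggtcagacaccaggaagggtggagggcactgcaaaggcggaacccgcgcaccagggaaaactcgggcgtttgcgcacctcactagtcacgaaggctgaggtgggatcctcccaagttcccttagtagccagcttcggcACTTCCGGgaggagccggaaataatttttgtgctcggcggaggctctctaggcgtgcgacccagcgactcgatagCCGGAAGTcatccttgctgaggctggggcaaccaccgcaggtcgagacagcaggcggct
HARS2 had 84.3, 86.2 and 84.3 CPM in shCHAF1B-1 libraries and 90.7, 88.3 and 92.8 CPM in shCHAF1B-2 libraries, against 87.0, 88.8 and 91.5 CPM in shGFP libraries. It passed with neither hairpin (adjusted p = 0.199 and 0.665). The exons of the pair overlap by 437 bases, 11.7% of the exon length of HARS2, and without strand the reads there cannot be told apart.

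Cytosolic enzymes that fell under both hairpins were those for aspartate, lysine, glutamate and proline, alanine, glutamine and phenylalanine. DARS, the aspartyl enzyme (chromosome 2, 135906677 to 135986100, minus strand), had 86.0, 91.6 and 88.4 CPM in shCHAF1B-1 libraries and 98.8, 91.8 and 99.7 CPM in shCHAF1B-2 libraries, against 112, 117 and 120 CPM in shGFP libraries. DARS fell by 23.6% with shCHAF1B-1 (log2 fold change -0.39, SE 0.0488, adjusted p = 1.57e-05) and by 16.7% with shCHAF1B-2 (-0.26, SE 0.0488, adjusted p = 0.000466). This was the largest fall of a cytosolic enzyme with shCHAF1B-1 and with shCHAF1B-2. EPRS, a single protein that charges both glutamate and proline (chromosome 1, 219968601 to 220046658, minus strand), had 722, 737 and 719 CPM in shCHAF1B-1 libraries and 770, 745 and 758 CPM in shCHAF1B-2 libraries, against 867, 874 and 915 CPM in shGFP libraries. EPRS fell by 18.0% with shCHAF1B-1 (log2 fold change -0.29, SE 0.0425, adjusted p = 7.1e-05) and by 14.4% with shCHAF1B-2 (-0.22, SE 0.0425, adjusted p = 0.000575). Its highest knockdown library was well under its lowest shGFP library.

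KARS, the lysyl enzyme of both compartments, had 257, 256 and 262 CPM in shCHAF1B-1 libraries and 265, 258 and 280 CPM in shCHAF1B-2 libraries, against 302, 325 and 323 CPM in shGFP libraries. KARS fell by 18.4% with shCHAF1B-1 (adjusted p = 0.000131) and by 15.5% with shCHAF1B-2 (adjusted p = 0.000667). The KARS pseudogenes in the table stayed at or under 0.26 CPM. AARS, the alanyl enzyme, had 144, 146 and 155 CPM in shCHAF1B-1 libraries and 148, 153 and 150 CPM in shCHAF1B-2 libraries, against 172, 178 and 174 CPM in shGFP libraries. AARS fell by 15.1% with shCHAF1B-1 (adjusted p = 0.00044) and fell by 13.8% with shCHAF1B-2 (adjusted p = 0.000972). For both genes every knockdown library was below every shGFP library.

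QARS, the glutaminyl enzyme, had 201, 199 and 203 CPM in shCHAF1B-1 libraries and 194, 192 and 202 CPM in shCHAF1B-2 libraries, against 220, 228 and 226 CPM in shGFP libraries. QARS fell by 10.6% with shCHAF1B-1 (adjusted p = 0.00435) and by 12.7% with shCHAF1B-2 (adjusted p = 0.00119), with no overlap. FARSA, the alpha chain of the phenylalanyl enzyme, had 104, 93.4 and 95.5 CPM in shCHAF1B-1 libraries and 92.5, 94.2 and 97.4 CPM in shCHAF1B-2 libraries, against 107, 116 and 104 CPM in shGFP libraries. Its highest shCHAF1B-1 and lowest shGFP libraries nearly met. FARSA fell by 10.5% with shCHAF1B-1 (adjusted p = 0.0237) and by 13.1% with shCHAF1B-2 (adjusted p = 0.00682). The shCHAF1B-1 call was lost without shCHAF1B-1 replicate 2 (adjusted p = 0.115) or 3 (0.0758) and without shGFP replicate 2 (0.114).

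FARSB, the beta chain that pairs with FARSA, averaged 117 ± 2.36 CPM in shCHAF1B-1 libraries and 125 ± 5.20 CPM in shCHAF1B-2 libraries, against 139 ± 6.92 CPM in shGFP libraries (SD, n = 3 each). FARSB fell by 15.7% with shCHAF1B-1 (adjusted p = 0.00084) and by 10.1% with shCHAF1B-2 (adjusted p = 0.0190). The shCHAF1B-2 call was lost without shCHAF1B-2 replicate 1 (adjusted p = 0.0654) or 2 (0.0617) and without shGFP replicate 3 (0.0899).

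The remaining 8 cytosolic enzymes did not pass under both hairpins. IARS and LARS, which charge isoleucine and leucine, fell by 9.93% (adjusted p = 0.0101) and by 10.5% (adjusted p = 0.00654) with shCHAF1B-1. With shCHAF1B-2, IARS changed by -3.45% (adjusted p = 0.359) and LARS by -6.96% (adjusted p = 0.0589). LARS was nonetheless lower in all 6 knockdown libraries, at 255 to 275 CPM, than in shGFP libraries, at 284 to 303 CPM. The LARS value for shCHAF1B-2 passed without shCHAF1B-2 replicate 3 (adjusted p = 0.0490), with upper-quartile scaling (0.0172), with limma-voom (0.0493) and with a filter of 1 CPM in 3 libraries (0.0312). VARS, the valyl enzyme, changed by -8.93% with shCHAF1B-1 (adjusted p = 0.0876) and fell by 14.7% with shCHAF1B-2 (adjusted p = 0.00773), and the shCHAF1B-1 value passed without shCHAF1B-1 replicate 1 (adjusted p = 0.0151) or shGFP replicate 3 (0.0283) and with upper-quartile scaling (0.0345).

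MARS, NARS, RARS, TARS and YARS, which charge methionine, asparagine, arginine, threonine and tyrosine, passed with neither hairpin. Their log2 fold changes ran from -0.07 for NARS to 0.02 for MARS with shCHAF1B-1 and from -0.00 for YARS to 0.08 for RARS with shCHAF1B-2. YARS averaged 218 ± 3.16 CPM in shCHAF1B-1 libraries and 216 ± 6.37 CPM in shCHAF1B-2 libraries, against 216 ± 1.57 CPM in shGFP libraries (SD, n = 3 each). The 95% interval of its log2 fold change was -0.08 to 0.10 with shCHAF1B-1 and -0.09 to 0.09 with shCHAF1B-2. Knockdown and shGFP libraries overlapped for all 5 genes. The RARS value for shCHAF1B-2 passed without shCHAF1B-2 replicate 2 (adjusted p = 0.0463).

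**Figure D2:**
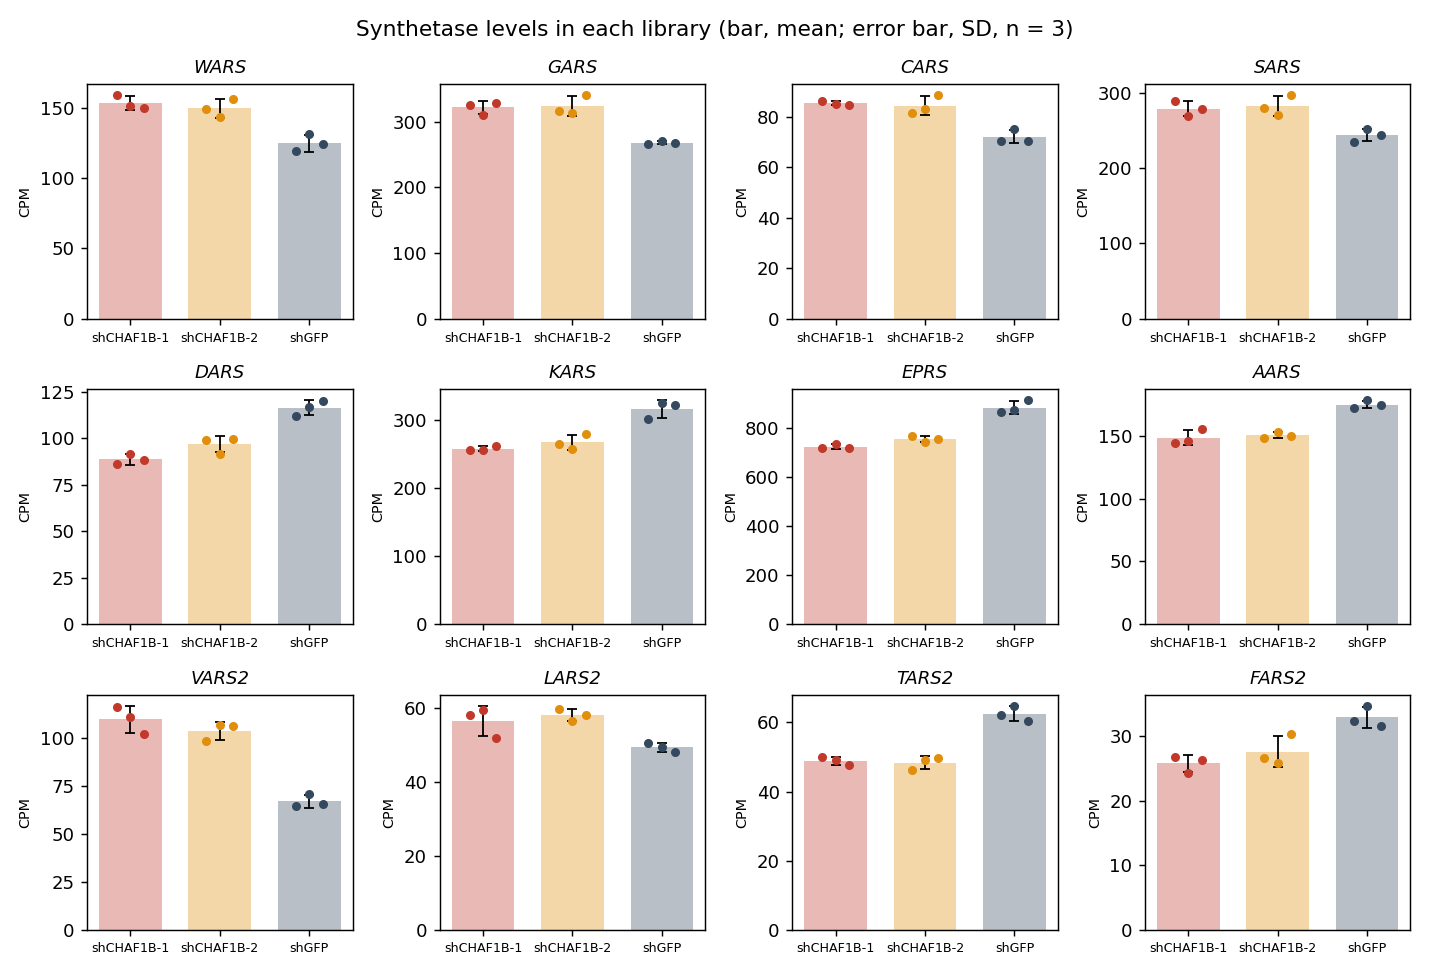
CPM of 12 synthetase genes in each of the 9 libraries; points are libraries, bars are means and error bars SD over n = 3, for shCHAF1B-1, shCHAF1B-2 and shGFP from left to right. In each panel the 6 knockdown libraries lie on one side of the 3 shGFP libraries, above them for WARS, GARS, CARS, SARS, VARS2 and LARS2 and below them for DARS, KARS, EPRS, AARS, TARS2 and FARS2.

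The enzymes of the multisynthetase complex showed falls and no rises. Of its 8 synthetase genes (DARS, EPRS, IARS, KARS, LARS, MARS, QARS and RARS), 4 fell and 0 rose under both hairpins by edgeR. At an unadjusted p under 0.05 the count risen was 0 as well, and DESeq2 and limma-voom also gave 0. Their median log2 fold change was -0.16 with shCHAF1B-1 and -0.15 with shCHAF1B-2. Of the 12 synthetases known as ATF4 targets, 4 rose and 2 fell under both hairpins, with medians of 0.01 and 0.03. The background shares for both hairpins were 23.8% risen and 20.8% fallen, and neither list was tested as a set.

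The scaffold genes of that complex divided. AIMP2, the scaffold to which many of its enzymes bind, averaged 28.3 ± 0.915 CPM in shCHAF1B-1 libraries and 27.7 ± 1.27 CPM in shCHAF1B-2 libraries, against 40.1 ± 3.08 CPM in shGFP libraries (SD, n = 3 each). Its log2 fold change was -0.50 with shCHAF1B-1 (adjusted p = 1.89e-05) and -0.53 with shCHAF1B-2 (adjusted p = 1.27e-05). AIMP1, which binds the arginyl enzyme, fell as well, by 0.43 with shCHAF1B-1 (adjusted p = 6.72e-06) and by 0.26 with shCHAF1B-2 (adjusted p = 0.000604) on the log2 scale. EEF1E1, the third scaffold protein, rose with shCHAF1B-2 (log2 fold change 0.38, adjusted p = 0.00323) and was at 0.15 with shCHAF1B-1 (adjusted p = 0.180). The hairpins were not separated by the test of their difference for EEF1E1 (adjusted p = 0.432).

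Mitochondrial enzymes that rose were those for valine, leucine and arginine. VARS2, which charges mitochondrial valine tRNA (chromosome 6, 30908242 to 30926459, plus strand), had the largest change of the 36 genes. Its levels were 116, 111 and 102 CPM in shCHAF1B-1 libraries and 98.3, 107 and 106 CPM in shCHAF1B-2 libraries, against 64.5, 70.9 and 65.4 CPM in shGFP libraries. The lowest knockdown library, at 98.3 CPM, was far above the highest shGFP library, at 70.9 CPM. VARS2 rose by 63.7% with shCHAF1B-1 (log2 fold change 0.71, SE 0.0592, adjusted p = 3.14e-07) and by 54.9% with shCHAF1B-2 (0.63, SE 0.0594, adjusted p = 1.13e-06). Leaving out each library in turn kept the log2 fold change between 0.67 and 0.76 with shCHAF1B-1 and between 0.60 and 0.67 with shCHAF1B-2. The exons of VARS2 overlap those of GTF2H4, a transcription factor subunit gene on the same strand, by 1858 bases or 22.0% of the VARS2 exon length. Counts assigned to GTF2H4 itself were 0.62 to 1.10 CPM in knockdown libraries and 0.47 to 1.09 CPM in shGFP libraries, so reads shared by the pair may have been left uncounted or assigned to VARS2.

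LARS2, the mitochondrial leucyl enzyme, had 58.2, 59.4 and 51.8 CPM in shCHAF1B-1 libraries and 59.7, 56.5 and 58.1 CPM in shCHAF1B-2 libraries, against 50.5, 49.4 and 48.0 CPM in shGFP libraries. Replicate 3 of shCHAF1B-1, the library with B lymphocyte transcripts, was the lowest knockdown library. LARS2 rose by 14.6% with shCHAF1B-1 (adjusted p = 0.0102) and by 17.8% with shCHAF1B-2 (adjusted p = 0.00347), and its shCHAF1B-1 call was lost without shCHAF1B-1 replicate 2 (adjusted p = 0.0597). RARS2, the mitochondrial arginyl enzyme, had 54.4, 54.3 and 55.6 CPM in shCHAF1B-1 libraries and 57.6, 53.5 and 56.4 CPM in shCHAF1B-2 libraries, against 49.0, 48.4 and 48.7 CPM in shGFP libraries. RARS2 rose by 12.4% with shCHAF1B-1 (adjusted p = 0.00737) and by 14.6% with shCHAF1B-2 (adjusted p = 0.00296), with shGFP libraries nearly equal and all below the knockdown libraries.

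Mitochondrial enzymes that fell under both hairpins were those for threonine, phenylalanine, methionine, tryptophan, proline, alanine and glutamate. TARS2, the mitochondrial threonyl enzyme (chromosome 1, 150487364 to 150507609, plus strand), had 50, 49.0 and 47.7 CPM in shCHAF1B-1 libraries and 46.3, 49.1 and 49.8 CPM in shCHAF1B-2 libraries, against 62.1, 64.8 and 60.5 CPM in shGFP libraries. TARS2 fell by 21.8% with shCHAF1B-1 (log2 fold change -0.35, SE 0.0497, adjusted p = 4.29e-05) and by 22.5% with shCHAF1B-2 (-0.37, SE 0.0499, adjusted p = 3.41e-05). All 6 knockdown libraries were well below the 3 shGFP libraries. FARS2, the mitochondrial phenylalanyl enzyme, had 26.8, 24.3 and 26.3 CPM in shCHAF1B-1 libraries and 26.6, 25.9 and 30.3 CPM in shCHAF1B-2 libraries, against 32.4, 34.7 and 31.6 CPM in shGFP libraries. FARS2 fell by 21.6% with shCHAF1B-1 (adjusted p = 0.000745) and by 16.2% with shCHAF1B-2 (adjusted p = 0.00758). Replicate 3 of shCHAF1B-2 was the knockdown library nearest to the shGFP libraries.

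MARS2, the methionyl enzyme, had 30.7, 28.1 and 29.1 CPM in shCHAF1B-1 libraries and 31.3, 31.5 and 30.0 CPM in shCHAF1B-2 libraries, against 35.1, 38.5 and 33.6 CPM in shGFP libraries. MARS2 fell by 18.1% with shCHAF1B-1 (adjusted p = 0.00149) and by 13.5% with shCHAF1B-2 (adjusted p = 0.0127), and the shCHAF1B-2 call was lost without shGFP replicate 2 (adjusted p = 0.0630), the highest library. WARS2, the tryptophanyl enzyme, had 26.6, 27.7 and 27.1 CPM in shCHAF1B-1 libraries and 27.1, 27 and 30.9 CPM in shCHAF1B-2 libraries, against 31.9, 34.2 and 32.7 CPM in shGFP libraries. WARS2 fell by 17.5% with shCHAF1B-1 (adjusted p = 0.00203) and by 13.9% with shCHAF1B-2 (adjusted p = 0.0109). For both genes the highest knockdown library was below the lowest shGFP library.

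AARS2, the alanyl enzyme, had 23.5, 24.6 and 25.4 CPM in shCHAF1B-1 libraries and 24.0, 26.1 and 23.5 CPM in shCHAF1B-2 libraries, against 29, 27.8 and 28.7 CPM in shGFP libraries. AARS2 fell by 14.1% with shCHAF1B-1 (adjusted p = 0.0067) and by 13.9% with shCHAF1B-2 (adjusted p = 0.00778). Its groups did not overlap. PARS2, the prolyl enzyme and one of the least abundant members, had 7.93, 6.73 and 7.57 CPM in shCHAF1B-1 libraries and 6.94, 7.54 and 7.27 CPM in shCHAF1B-2 libraries, against 9.06, 8.78 and 8.35 CPM in shGFP libraries. PARS2 fell by 15.3% with shCHAF1B-1 (adjusted p = 0.0389) and by 16.9% with shCHAF1B-2 (adjusted p = 0.0259).

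The PARS2 call was among the least stable. With shCHAF1B-1 it was lost without that group's replicate 2 (adjusted p = 0.180) or 3 (0.0576) and without shGFP replicate 1 (0.120) or 2 (0.0852). With shCHAF1B-2 it was lost without that group's replicate 1 (adjusted p = 0.0820) or 3 (0.0506) and without shGFP replicate 1 (0.0868) or 2 (0.0614). EARS2, which charges glutamate and also loads it on mitochondrial glutamine tRNA, averaged 63.1 ± 1.23 CPM in shCHAF1B-1 libraries and 64.3 ± 2.27 CPM in shCHAF1B-2 libraries, against 73.4 ± 1.77 CPM in shGFP libraries (SD, n = 3 each). EARS2 fell by 14.1% with shCHAF1B-1 (adjusted p = 0.00124) and by 12.3% with shCHAF1B-2 (adjusted p = 0.00364).

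The remaining 6 mitochondrial enzymes did not pass under both hairpins. YARS2, the tyrosyl enzyme, fell by 11.5% with shCHAF1B-1 (adjusted p = 0.0175) and changed by -3.84% with shCHAF1B-2 (adjusted p = 0.432). Its shCHAF1B-1 call was lost without shCHAF1B-1 replicate 2 (adjusted p = 0.0511) or 3 (0.0879) and without shGFP replicate 2 (0.0791). CARS2, HARS2, IARS2, NARS2 and SARS2 passed with neither hairpin, with log2 fold changes from -0.14 for SARS2 to -0.00 for CARS2 with shCHAF1B-1 and from -0.13 for SARS2 to 0.09 for NARS2 with shCHAF1B-2. NARS2 passed with shCHAF1B-2 once shCHAF1B-2 replicate 2 was left out (log2 fold change 0.17, adjusted p = 0.0451). SARS2 was read at 2.02 to 2.84 CPM in knockdown libraries and 2.54 to 2.93 CPM in shGFP libraries, and 46.2% of its exon length overlaps another annotated gene on the same strand. The 95% interval of its log2 fold change, -0.48 to 0.21 with shCHAF1B-1 and -0.47 to 0.22 with shCHAF1B-2, was the widest of the members.

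Enzymes for the same amino acid did not always move together in cytosol and mitochondrion. For tryptophan, WARS rose and WARS2 fell under both hairpins. For leucine, LARS fell and LARS2 rose with shCHAF1B-1, and for valine, VARS fell and VARS2 rose with shCHAF1B-2. For alanine (AARS and AARS2), phenylalanine (FARSA, FARSB and FARS2) and glutamate with proline (EPRS, EARS2 and PARS2) every gene fell under both hairpins. For cysteine, histidine and serine the cytosolic gene rose under both hairpins and the mitochondrial gene passed with neither. For methionine and threonine the mitochondrial gene fell under both and the cytosolic gene passed with neither, and for arginine RARS2 rose while RARS passed with neither.

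The 2 CHAF1B hairpins were also compared with each other. In shCHAF1B-2 minus shCHAF1B-1, 0 of 36 members and 0.0% of the 16235 genes passed edgeR's test, while 5 members and 1800 genes were under an unadjusted p of 0.05. DESeq2 and limma-voom each called 0 members, with 4 members under an unadjusted p of 0.05. The differences ran from -0.09 for VARS to 0.21 for NARS2 on the log2 scale, and 26 of 36 were above 0, where 7882 of all 16235 genes were. NARS2 averaged 33.1 ± 3.66 CPM in shCHAF1B-2 libraries and 28.7 ± 0.901 CPM in shCHAF1B-1 libraries (SD, n = 3 each), with a 95% interval of the log2 difference from 0.05 to 0.36 (adjusted p = 0.423). No member's interval reached 1.5-fold.

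Per kilobase of principal transcript, the synthetases spanned a wide range of levels. IARS2, the mitochondrial isoleucyl enzyme, was the highest, at 193 ± 8.10 CPM per kb in shCHAF1B-1 libraries, 204 ± 12.2 CPM per kb in shCHAF1B-2 libraries and 196 ± 2.32 CPM per kb in shGFP libraries (SD, n = 3 each). EPRS stood at 145 ± 1.96 CPM per kb with shCHAF1B-1 and 151 ± 2.56 CPM per kb with shCHAF1B-2, against 177 ± 5.20 CPM per kb in shGFP libraries, where it was the highest cytosolic enzyme. In the knockdown libraries SARS stood beside it, at 150 ± 5.45 CPM per kb with shCHAF1B-1 and 153 ± 7.27 CPM per kb with shCHAF1B-2, against 131 ± 4.69 CPM per kb in shGFP libraries. EPRS and SARS did not differ beyond their spread in the knockdown libraries and did in the shGFP libraries. The lowest cytosolic enzyme was CARS, at 31.8 ± 0.315 CPM per kb with shCHAF1B-1 and 31.4 ± 1.41 CPM per kb with shCHAF1B-2, against 26.8 ± 0.967 CPM per kb with shGFP. PARS2 was low among the mitochondrial enzymes, at 3.16 ± 0.261 CPM per kb with shCHAF1B-1 and 3.09 ± 0.126 CPM per kb with shCHAF1B-2, against 3.72 ± 0.151 CPM per kb with shGFP. SARS2 was the lowest of all, at 1.23 ± 0.133 CPM per kb with shCHAF1B-1 and 1.24 ± 0.222 CPM per kb with shCHAF1B-2, against 1.35 ± 0.101 CPM per kb with shGFP. Reads in the 46.2% of SARS2 exon length that overlaps another gene on the same strand may have been left uncounted.

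**Figure D3:**
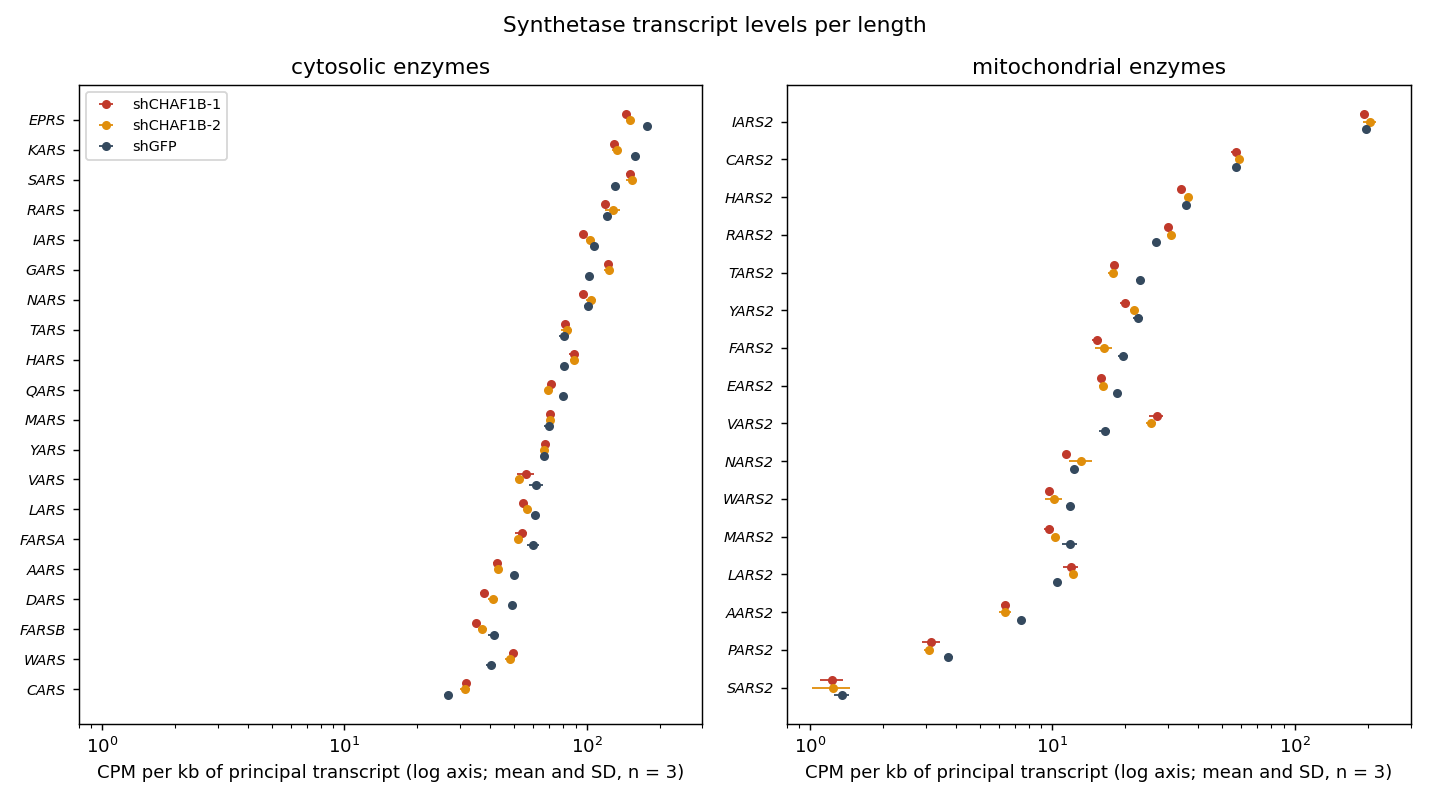
Level of each synthetase transcript in CPM per kilobase of principal transcript on a log axis, as mean and SD over n = 3 libraries for shCHAF1B-1, shCHAF1B-2 and shGFP. Cytosolic enzymes lie between CARS at 26.8 and EPRS at 177 in shGFP libraries, while mitochondrial enzymes spread from SARS2 at 1.35 to IARS2 at 196. Reads where SARS2 exons overlap another gene may have been left uncounted.

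Summed over the 20 genes, cytosolic synthetase RNA was 4968 ± 43.7 CPM in shCHAF1B-1 libraries and 5094 ± 150 CPM in shCHAF1B-2 libraries, against 5261 ± 103 CPM in shGFP libraries (SD, n = 3 each). The shCHAF1B-1 libraries, at 4929 to 5016 CPM, were all below the shGFP libraries, at 5150 to 5354 CPM, while the shCHAF1B-2 libraries, at 4967 to 5259 CPM, overlapped them. Without EPRS, the most abundant cytosolic gene, the sums averaged 4242 CPM in shCHAF1B-1 libraries and 4336 CPM in shCHAF1B-2 libraries, against 4376 CPM in shGFP libraries, and the shCHAF1B-1 libraries, at 4210 to 4294 CPM, overlapped the shGFP libraries, at 4283 to 4439 CPM. The 16 mitochondrial genes summed to 1399 ± 47.8 CPM in shCHAF1B-1 libraries and 1457 ± 56.2 CPM in shCHAF1B-2 libraries, against 1415 ± 16.3 CPM in shGFP libraries, and these ranges overlapped.

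Genes that work beside the synthetases are given list by list, each to be read against 23.8% of all genes risen and 20.8% fallen under both hairpins. Among 19 genes of tRNA processing, end addition and export, 12 fell and 0 rose under both hairpins by edgeR (15 fell and 0 rose with shCHAF1B-1, and 12 fell and 1 rose with shCHAF1B-2), with a median log2 fold change of -0.24 with shCHAF1B-1 and -0.21 with shCHAF1B-2. The count risen under both was 0 at an unadjusted p under 0.05, by DESeq2 and by limma-voom too. TSEN54, a subunit of the tRNA splicing endonuclease, fell by 0.44 and by 0.57 on the log2 scale with shCHAF1B-1 and shCHAF1B-2 (adjusted p = 3.67e-05 and 4.33e-06). RPP30, RPP38 and POP1, subunits of ribonuclease P, which trims the 5′ end of tRNA, fell too, RPP30 by 0.40 (adjusted p = 2.37e-05) and by 0.32 (adjusted p = 0.000202). XPOT, the tRNA exporter, was at 0.02 with shCHAF1B-1 (adjusted p = 0.752) and rose with shCHAF1B-2 (log2 fold change 0.11, adjusted p = 0.0447).

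Among 12 genes of mitochondrial tRNA processing and modification, 6 fell and 1 rose under both hairpins by edgeR, and 5 fell and 1 rose by DESeq2. TRMT5, which methylates the base next to the anticodon, averaged 25.7 CPM in shCHAF1B-1 libraries and 28.3 CPM in shCHAF1B-2 libraries, against 39.6 CPM in shGFP libraries. Its log2 fold change was -0.62 with shCHAF1B-1 (SE 0.0559, adjusted p = 6.6e-07) and -0.48 with shCHAF1B-2 (SE 0.0558, adjusted p = 7.54e-06). TRMU, which thiolates the wobble base, fell by 0.41 and by 0.47 on the log2 scale (adjusted p = 2.55e-05 and 7.39e-06). TRIT1, which adds an isopentenyl group beside the anticodon, was the gene that rose, with log2 fold changes of 0.26 and 0.39 (adjusted p = 0.0044 and 0.000261).

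A further list held 4 genes, for the mitochondrial glutaminyl-tRNA amidotransferase and the methionyl-tRNA formyltransferase. MTFMT, which formylates the initiator methionyl-tRNA, fell by 0.41 and by 0.27 on the log2 scale with shCHAF1B-1 and shCHAF1B-2 (adjusted p = 5.19e-05 and 0.00178). GATB, a subunit of the amidotransferase that makes mitochondrial glutaminyl-tRNA, fell by 0.21 under each (adjusted p = 0.00516 and 0.0065). GATC and QRSL1, the other subunits, passed with neither. Of 5 genes for proofreading and selenocysteine charging, DTD2, a D-aminoacyl-tRNA deacylase, fell under both (adjusted p = 0.000306 and 0.0124).

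Of 4 cytosolic elongation factors tested, 3 fell under both hairpins, and of 4 mitochondrial ones 2 did. EEF2, the cytosolic translocation factor, averaged 2340 ± 103 CPM in shCHAF1B-1 libraries and 2175 ± 58.8 CPM in shCHAF1B-2 libraries, against 3166 ± 224 CPM in shGFP libraries (SD, n = 3 each), with log2 fold changes of -0.44 and -0.54 (adjusted p = 2.26e-05 and 3.32e-06). EEF1B2 and EEF1D, exchange factors for EEF1A1, fell under both hairpins. EEF1A1, which delivers charged tRNA, fell with shCHAF1B-1 (log2 fold change -0.20, adjusted p = 0.0131) and was at -0.10 with shCHAF1B-2 (adjusted p = 0.179). TUFM, the mitochondrial carrier of charged tRNA, fell by 0.32 under each hairpin (adjusted p = 0.000373 and 0.000411), and TSFM, its exchange factor, fell by 0.42 and by 0.32 (adjusted p = 0.000329 and 0.0025). GFM1, the mitochondrial translocation factor, fell with shCHAF1B-1 (log2 fold change -0.11, adjusted p = 0.0441) and was at -0.02 with shCHAF1B-2 (adjusted p = 0.791). GFM2, which helps recycle mitochondrial ribosomes, was at 0.11 with shCHAF1B-1 (adjusted p = 0.119) and rose with shCHAF1B-2 (log2 fold change 0.19, adjusted p = 0.0101).

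The 20 subunits and factors of RNA polymerase III, which transcribes tRNA genes, gave 3 fallen and 2 risen under both hairpins by edgeR. By DESeq2 the counts were 2 fallen and 1 risen. GTF3C2, POLR3E and POLR3B fell, GTF3C2 by 0.25 under each hairpin (adjusted p = 0.000414 and 0.000405). POLR3F and GTF3C3 rose, POLR3F by 0.25 and 0.28 on the log2 scale (adjusted p = 0.00284 and 0.00125). Mature tRNAs are not polyadenylated and were not measured in these libraries.

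ATF4 RNA averaged 314 CPM in shCHAF1B-1 libraries and 310.1 CPM in shCHAF1B-2 libraries, against 301 CPM in shGFP libraries, and did not pass (log2 fold change 0.06, adjusted p = 0.339 with shCHAF1B-1 and 0.04, adjusted p = 0.519 with shCHAF1B-2). Of 25 genes, ATF4 and those it is known to drive, 6 rose and 12 fell under both hairpins by edgeR, with medians of -0.29 and -0.27. By DESeq2, 6 rose and 10 fell. SLC7A5 and SLC3A2, which together form the transporter for large neutral amino acids, fell furthest of the list. SLC7A5 averaged 874 CPM in shCHAF1B-1 libraries and 852 CPM in shCHAF1B-2 libraries, against 2211 CPM in shGFP libraries (log2 fold change -1.34 and -1.38, adjusted p = 9.65e-10 and 8.43e-10). VLDLR, a lipoprotein receptor gene at a low level, had the largest change of the list: it averaged 3.45 CPM in shCHAF1B-1 libraries and 3.15 CPM in shCHAF1B-2 libraries, against 0.732 CPM in shGFP libraries, and rose by 2.23 and 2.10 on the log2 scale (adjusted p = 3.23e-07 and 7.12e-07). ALDH1L2, a mitochondrial enzyme of folate metabolism, fell by 0.58 and by 0.56 (adjusted p = 6.61e-07 and 1.17e-06). DDIT3, a stress transcription factor named outside the rule for choosing genes from a list, was also at a low level. It averaged 6.17 CPM in shCHAF1B-1 libraries and 5.44 CPM in shCHAF1B-2 libraries, against 3.15 CPM in shGFP libraries. DDIT3 rose by 0.97 and 0.79 on the log2 scale (adjusted p = 1.39e-05 and 0.000112). Its exons overlap those of MARS, on the opposite strand, by 355 bases, where reads without strand are uncertain. Of 16 amino acid transporters, which include that pair, 6 rose and 3 fell under both hairpins.

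**Figure D4:**
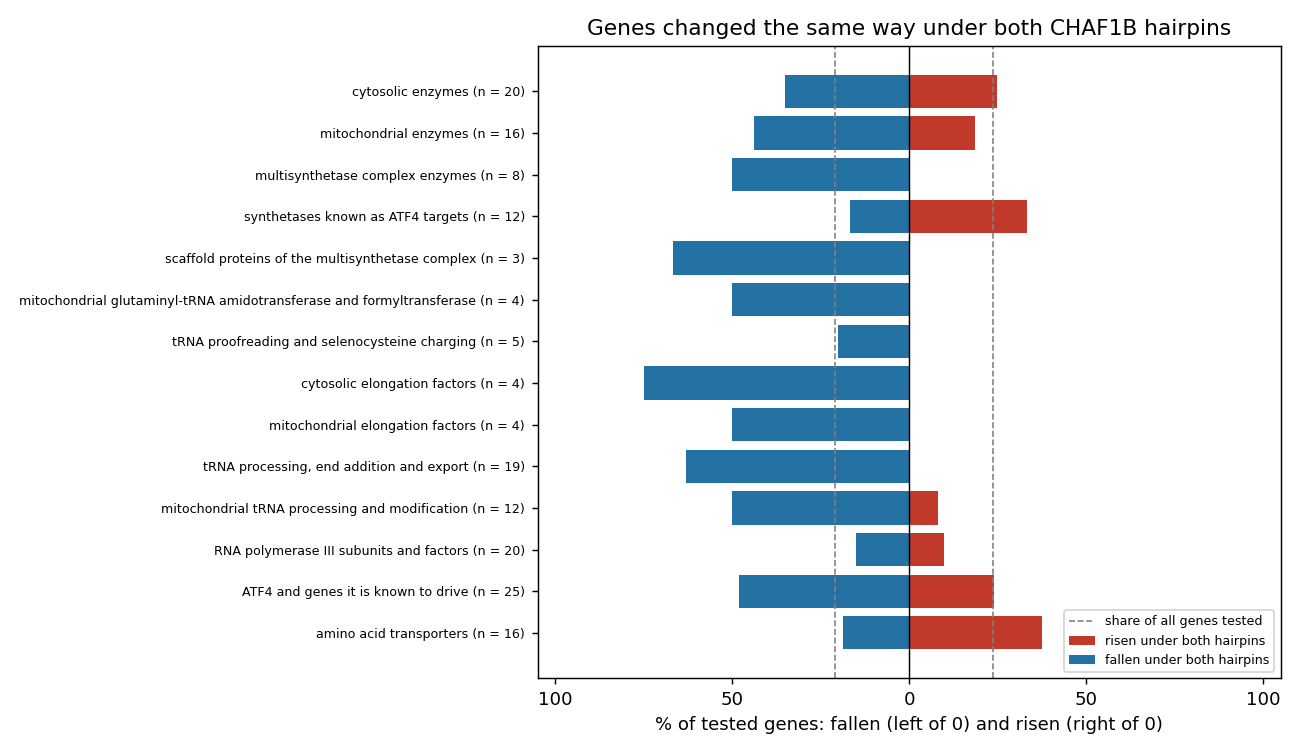
Share of the tested genes of each list that rose (right of 0) or fell (left of 0) under both CHAF1B hairpins at an adjusted p of 0.05, with the number tested beside each name; dashed lines mark the share of all 16235 genes, 23.8% risen and 20.8% fallen. The lists of tRNA processing and of cytosolic elongation factors reach furthest to the left among lists of 4 or more genes.

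A synthetase gene outside the list, chosen after its values were seen, moved more than most members. TARSL2, a threonyl enzyme related to TARS, had 13.7, 13.9 and 13.3 CPM in shCHAF1B-1 libraries and 14.1, 11.7 and 14.3 CPM in shCHAF1B-2 libraries, against 10.0, 9.89 and 10.8 CPM in shGFP libraries (log2 fold change 0.41 and 0.38, adjusted p = 0.00138 and 0.00279). TARSL2 rose with no overlap between knockdown and shGFP libraries.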

How the data were processed

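RNA was measured in 9 libraries of MCF10A cells, in 3 groups of 3 by the hairpin named in the labels. The deposited values are the authors' raw counts of reads per gene, without normalization. The kit, per the labels' protocols TruSeq version 2, does not mark strand. Per the submitters' processing notes the tools were STAR 2.5.3a and HTSeq 0.8.0, with DESeq2 1.18.1, and the builds mm10 and hg38, whose roles are not given. The synthetases and related lists were chosen with earlier results of these data known.

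Identifiers, cut before the version, were looked up in GENCODE release 29 (GRCh38) for symbols and positions: 26149 of 26186 matched and 37 did not, and 35 of 36 members had the same version. The low-count filter filterByExpr, at a count of 10, a total of 15 and a proportion of 0.7, kept 16235 genes. TMM scaling was followed by edgeR's quasi-likelihood test (version 4.0.16; R 4.3.3). The 9 libraries shared 1 fit, with Benjamini-Hochberg adjustment over all genes tested and a threshold of 0.05. SEs were derived from the F statistic and the log2 fold change, and intervals are 95%. CPM are TMM-scaled; levels per kb use the longest principal transcript. No 2 libraries of a group were alike within sampling noise, and each counted as a replicate in the fit. Technical differences alone can exceed sampling noise, so this does not show separate cultures. Exons of 20 of 36 members overlap those of another gene, where reads without strand are uncertain.

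Members described library by library were, in each class, up to 6 rising and 6 falling under both hairpins with the largest smaller change; from each related list up to 4 genes with the smallest larger adjusted p, and those needed for counts of 5 or fewer. ATF4 and DDIT3 were named outside these rules. The scripts were tested on simulated data. Alternatives were RLE and upper-quartile scaling, DESeq2 1.42.0, limma-voom (limma 3.58.1), no filter, a fit of the compared groups alone, a minimum of 1 CPM in 3 libraries, a block for replicate number, an adjusted p of 0.01, and leaving out each library in turn. Promoter windows came from RefSeq tables for GRCh38.p14 (Python 3.11.15). Some results are not reported here.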

Additional observations from a re-analysis of the deposited data

Results flagged for a closer look

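The B lymphocyte markers, which enter no comparison of the synthetases, summed to 242.25 CPM in shCHAF1B-1 replicate 3, above the 1.72 to 2.70 CPM of the shGFP libraries. Without that library the shCHAF1B-1 calls of FARSA (adjusted p = 0.0758), PARS2 (0.0576) and YARS2 (0.0879) were lost, and the other 22 shCHAF1B-1 calls among the synthetases held. In it FARSA stood at 95.5 CPM, PARS2 at 7.57 CPM and YARS2 at 40.1 CPM, against 93.4 to 104 CPM, 6.73 to 7.93 CPM and 42.3 to 44.3 CPM in the other shCHAF1B-1 libraries. The part of the B lymphocyte RNA in these values was not tested.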

How the results depend on the processing

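Of the 22 synthetases that passed under both hairpins, 16 (6 risen, 10 fallen) did so in all 18 settings with a threshold of 0.05, the reported one included, and the calls of FARSA, FARSB, HARS, LARS2, MARS2 and PARS2 were lost in at least 1. At an adjusted p of 0.01 the mitochondrial enzymes fallen were 4 with shCHAF1B-2 and 4 under both hairpins, by the stricter threshold itself. HARS lost its calls with upper-quartile scaling (adjusted p = 0.0622 and 0.0807) and no filter (0.0544 and 0.0536), and PARS2 with DESeq2 (0.110 and 0.0816). Calls were also gained, for LARS and VARS among them, and the cytosolic enzymes fallen under both hairpins ranged from 5 to 9 over all settings. Upper-quartile scaling turned the sign of log2 fold changes near 0, to -0.0057 and -0.0173 for MARS and -0.0181 and -0.0003 for TARS with shCHAF1B-1 and shCHAF1B-2, to -0.015 for YARS with shCHAF1B-1 and to -0.0103 for HARS2 with shCHAF1B-2. RLE scaling and DESeq2 put YARS at 0.0015 with shCHAF1B-2. Leaving out single libraries turned signs within -0.0121 to 0.0471 for MARS, -0.0368 to 0.0083 for RARS, -0.0153 to 0.0479 for TARS, -0.0362 to 0.0257 for CARS2 and -0.0519 to 0.0097 for IARS2 with shCHAF1B-1, and -0.016 to 0.0372 for MARS, -0.0226 to 0.0103 for YARS and -0.2163 to 0.0142 for SARS2 with shCHAF1B-2; none of these passed in any of these settings. The cause was not tested. Same-numbered libraries correlated from -0.138 to 0.100 in their deviations, and differently numbered ones from -0.217 to 0.22. The labels give no pairing, and these correlations cannot settle whether same-numbered libraries were prepared together. With the replicate number as a block HARS did not pass (adjusted p = 0.0524 and 0.0532) nor PARS2 with shCHAF1B-1 (0.0604). At the low levels of PARS2 and SARS2 the intervals of the change were wide.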
